A study of Homo sapiens with 12 samples.

Results

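The genes described here repair broken DNA: 40 members of the homologous recombination, Fanconi anaemia and break repair pathways, taken by symbol from 60666 Ensembl gene IDs for which reads were counted. All 40 were found, and all 40 passed the filter on low counts that kept 23493 genes for testing. The RNA came from KMS-11, KMS-12 and RPMI8226, 3 human lines of multiple myeloma, each labelled as wild type (WT). Each line was grown with 1 µM JQ1 for 72 h or with its solvent DMSO. The 6 groups are therefore KMS-11 with DMSO, KMS-11 with JQ1, KMS-12 with DMSO, KMS-12 with JQ1, RPMI8226 with DMSO and RPMI8226 with JQ1, with 2 libraries each and 12 in all. All groups shared the same medium with fetal bovine serum, and the controls received matched volumes of DMSO. JQ1 fills the acetyl-lysine pockets of the BET bromodomain proteins, which help transcription at acetylated chromatin. Each line is an established plasma cell tumour line and stands for 1 tumour, and the labels do not say which KMS-12 subline was used. Nor do they say whether the 2 libraries of a group came from separate cultures, so the p-values rest on the spread of these libraries alone, and that spread may be technical.

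Cells mend a break in both strands of DNA in 2 main ways. End joining seals the ends directly: the Ku proteins XRCC5 and XRCC6 cap them, the kinase PRKDC holds them together and LIG4 ligates them, at any stage of the cell cycle. Homologous recombination copies the sister chromatid and so needs replicated DNA: MRE11, RAD50, NBN, RBBP8 and EXO1 trim the ends, BRCA1 and BARD1 direct the process, and BRCA2 with PALB2 loads the recombinase. The Fanconi proteins remove crosslinks between the strands and hand the resulting breaks to recombination. Many of these genes are transcribed mainly in S phase under E2F factors. For that reason 16 members were set apart by textbook role as S-phase linked (BRCA1, BRCA2, BARD1, RAD51AP1, RAD54L, RAD54B, XRCC2, BRIP1, FANCA, FANCB, FANCD2, FANCI, BLM, EXO1, CHEK1 and MSH6) and contrasted with the 4 end-joining members (XRCC5, XRCC6, PRKDC and LIG4). The lists were chosen with earlier results of these data known, so the contrast only describes these data.

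Depth ran from 15424512 to 27366499 counts per library, and levels are given as CPM, a gene's reads scaled to a common library size after TMM adjustment. A count of 0 allowed up to 0.107 to 0.178 CPM, an upper limit for counting error only. The 8 plasma cell markers summed to 2440 to 8008 CPM in each library, the T cell markers to at most 11.01 CPM and the monocyte markers to at most 3.33 CPM. CD38, a plasma cell marker, was near absent from KMS-11 at 0.387 to 0.951 CPM. CCND1, which a translocation activates in some myelomas, stood at 620 and 549 CPM in KMS-12 with DMSO and at 6.46 to 30.9 CPM in the DMSO libraries of the other lines. Among the DMSO groups, the KMS-11 pair of libraries stood apart. There replicate 2 held a median of 1.97 times the CPM of replicate 1 over the 16 S-phase linked members (range 0.998 to 2.70). Over the 4 end-joining members it held 1.19 times. Summed markers of G2 and mitosis were 586 and 1764 CPM in these 2 libraries. The KMS-12 JQ1 libraries also differed from each other, at 52.1 and 109 CPM for the same markers.

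JQ1 lowered most of the 40 members in KMS-11 and KMS-12 and raised many of them in RPMI8226. In KMS-11, 22 members fell and 4 rose at an edgeR adjusted p under 0.05 (Benjamini-Hochberg), where 38.5% of all genes tested were called in either direction, 21.2% lower and 17.3% higher. In KMS-12, 25 fell and 4 rose, against 46% of all genes called, 25.7% lower and 20.2% higher. In RPMI8226, 2 fell and 20 rose, against 32.2% called, 18.6% lower and 13.6% higher. The median log2 change over the members was -0.59, -0.58 and 0.63 in the 3 lines, and over all genes tested 0.00, -0.06 and -0.03. In the average of the lines 24 members fell and 10 rose, against 49% called, 26.7% lower and 22.3% higher. Because the lines moved in opposite directions, this average hides the largest changes. The rises in the KMS lines depend on scaling: with library size alone in place of TMM, all log2 changes shifted by about -0.26 (KMS-11), -0.77 (KMS-12) and -0.03 (RPMI8226), and edgeR then called 0 members higher in KMS-11 (2 at an unadjusted p under 0.05) and 0 in KMS-12 (0 unadjusted).

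**Figure D1:**
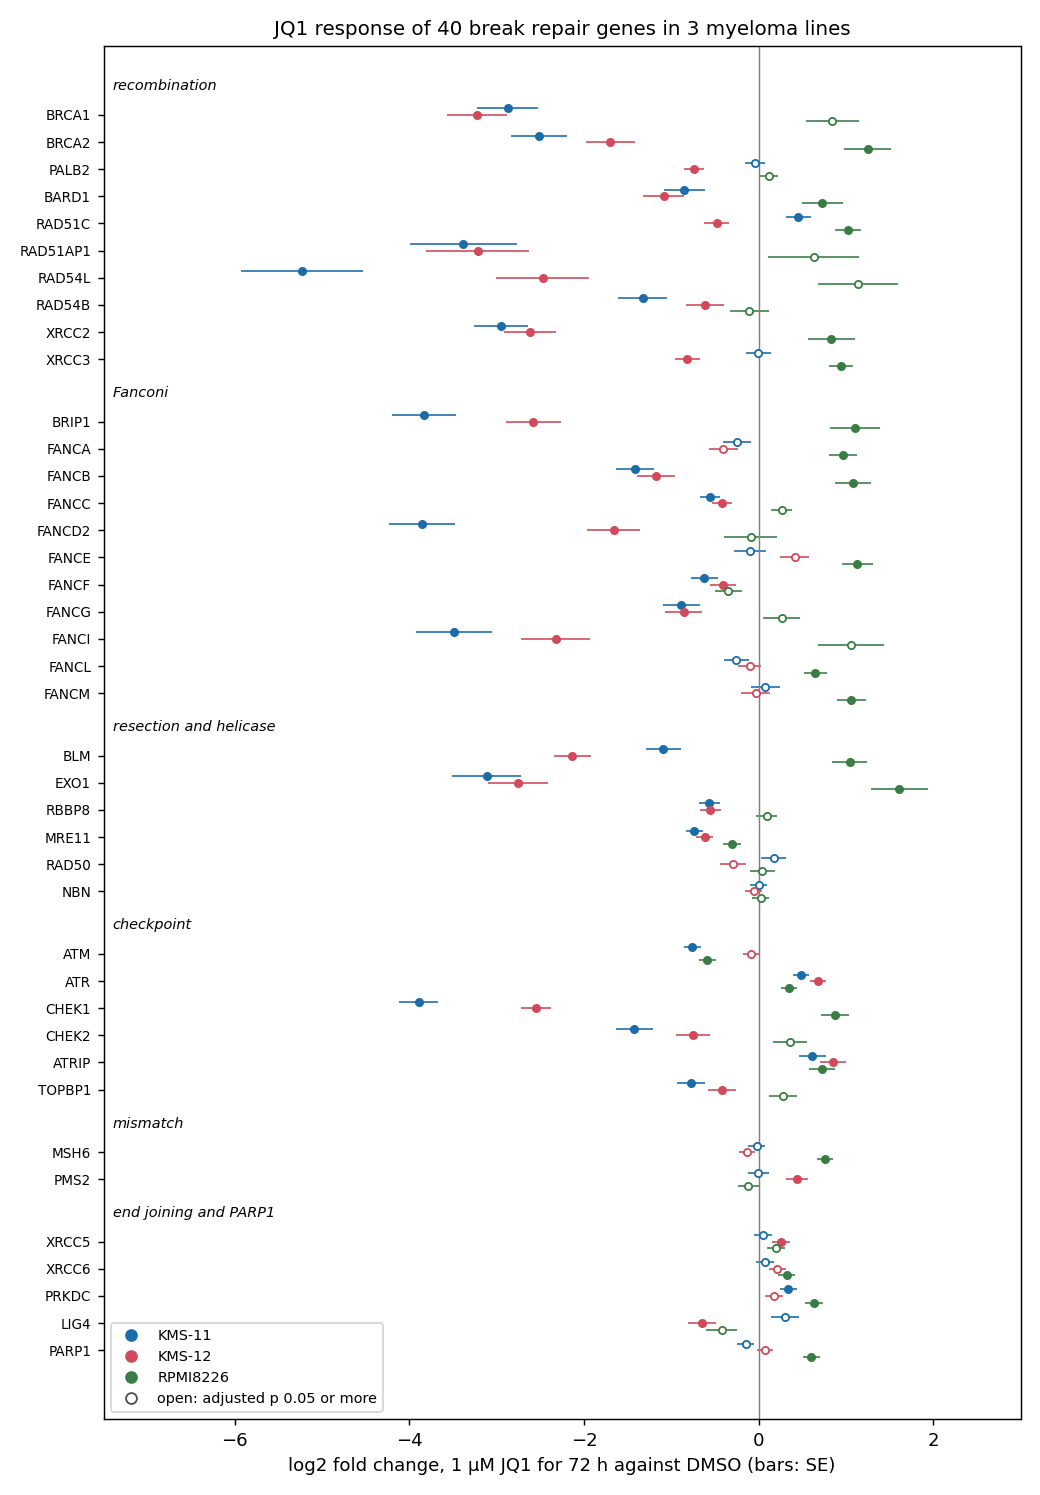
Log2 fold change of JQ1 against DMSO on the horizontal axis for each of the 40 members, grouped by role, in KMS-11 (blue), KMS-12 (red) and RPMI8226 (green), with bars for the standard error and open points where the edgeR adjusted p was 0.05 or more. The recombination, Fanconi and helicase genes spread out to -5.23 in KMS-11 and -3.23 in KMS-12 while RPMI8226 reaches 1.61, and the end-joining genes and PARP1 stay between -0.65 and 0.63 in all lines.

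The 8 members that fell in both KMS lines and rose in RPMI8226 were BRCA2, BARD1, XRCC2, BRIP1, FANCB, BLM, EXO1 and CHEK1. A further 12 fell in both KMS lines and were not called in RPMI8226: BRCA1, RAD51AP1, RAD54L, RAD54B, FANCC, FANCD2, FANCF, FANCG, FANCI, RBBP8, CHEK2 and TOPBP1. MRE11 fell in all 3 lines, which makes 21 members lower in both KMS lines. ATR and its partner ATRIP rose in all 3. RAD50 and NBN, which form a complex with MRE11, passed the test in no line. The other members were called in a single line or in other combinations of the lines.

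Among the 10 recombination members, 7 fell and 1 rose in KMS-11, all 10 fell in KMS-12, and 5 rose and 0 fell in RPMI8226, where edgeR at an unadjusted p under 0.05, DESeq2 and limma-voom also gave 0 falls. BRCA1 (ENSG00000012048, GRCh38 chr17:43044295-43170245, minus strand), the ubiquitin ligase subunit that promotes end resection, was at 40.8 and 60.9 CPM in the DMSO libraries of KMS-11 and at 7.33 and 6.51 CPM with JQ1. In KMS-12 it went from 91.5 and 107 CPM to 6.71 and 14.5 CPM, and in RPMI8226 from 45.3 and 53.8 CPM to 91.0 and 86.8 CPM. Every JQ1 library was below both DMSO libraries in the KMS lines and above both in RPMI8226. The log2 change was -2.87 (SE 0.35, edgeR adjusted p = 0.000409) in KMS-11 and -3.23 (SE 0.34, edgeR adjusted p = 0.000129) in KMS-12. In RPMI8226 it was 0.84 (SE 0.30), which did not pass at an edgeR adjusted p of 0.0723. Without KMS-12 JQ1 replicate 2 the KMS-12 change of BRCA1 was -3.87, and over all alternatives tried it ranged from -4.00 to -2.77.

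BRCA2 (ENSG00000139618, GRCh38 chr13:32315474-32400266, plus strand), which loads the recombinase onto single strands, had 11.46 and 22.9 CPM with DMSO and 2.76 and 3.25 CPM with JQ1 in KMS-11. The corresponding values were 28.4 and 32.4 against 7.52 and 11.2 CPM in KMS-12, and 19.2 and 18.9 against 48.3 and 42.3 CPM in RPMI8226. It fell by 2.51 on the log2 scale in KMS-11 and by 1.70 in KMS-12, and rose by 1.25 (SE 0.27, edgeR adjusted p = 0.00435) in RPMI8226, without overlap between the groups in any line. RAD54L (ENSG00000085999, GRCh38 chr1:46247688-46278473, plus strand), a motor protein that works on recombination intermediates, showed the largest fall of any member in 1 line. Its 2 KMS-11 libraries with DMSO had 11.6 and 31.4 CPM, and those with JQ1 had 0.618 and 0.505 CPM, above the 0.143 and 0.168 CPM that a count of 0 allows there. In KMS-12 the levels were 17.2 and 20.8 CPM with DMSO and 2.07 and 4.79 CPM with JQ1, and in RPMI8226 20.7 and 19.1 CPM with DMSO and 47.6 and 39.98 CPM with JQ1. The log2 changes were -5.23 (SE 0.70), -2.47 (SE 0.54) and 1.14 (SE 0.46), with edgeR adjusted p of 0.000820, 0.00732 and 0.105. Without KMS-11 DMSO replicate 2 the KMS-11 change of RAD54L was -4.33 and that of BRCA2 -1.92. Without KMS-12 JQ1 replicate 2 the KMS-12 change of RAD54L was -3.19, and over all alternatives tried it ranged from -3.24 to -1.99. Of the exon bases of RAD54L, 25.1% overlap LRRC41 on the opposite strand, and whether counting used the strand is not given in the sources used here, so its level is uncertain.

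RAD51AP1, which stimulates strand exchange, fell by 3.38 and 3.22 on the log2 scale in KMS-11 and KMS-12. XRCC2, a paralogue of the recombinase, fell by 2.95 and 2.62. Without KMS-11 DMSO replicate 2 the KMS-11 changes were -2.52 for RAD51AP1 and -2.34 for XRCC2. For RAD51AP1 the KMS-11 change was -4.06 without KMS-11 JQ1 replicate 2, and the KMS-12 change -3.97 without KMS-12 JQ1 replicate 2. Over all alternatives tried the KMS-12 change of RAD51AP1 ranged from -3.99 to -2.71. BARD1, the partner of BRCA1, fell by 0.85 and 1.09, and RAD54B, a relative of RAD54L, by 1.33 and 0.61. The KMS-11 call of BARD1 was lost without KMS-11 DMSO replicate 2 or either JQ1 library, and with the 4 KMS-11 libraries fitted alone. The RPMI8226 rises of XRCC2 (0.83, edgeR adjusted p = 0.0377) and BARD1 (0.73, edgeR adjusted p = 0.0371) were close to the threshold and were lost with RLE scaling and when any 1 RPMI8226 library was left out. RAD54B shares 59.1% of its exon bases with FSBP on the same strand, so its counts are uncertain, and its KMS-12 call was lost without any 1 KMS-12 library and with DESeq2.

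The paralogues RAD51C and XRCC3, which form a complex that acts late in recombination, did not follow that pattern. RAD51C was at 18.9 and 23.1 CPM with DMSO and at 30.2 and 27.4 CPM with JQ1 in KMS-11, at 26.4 and 24.5 against 18.6 and 17.9 CPM in KMS-12, and at 10.9 and 11.2 against 24.5 and 20.4 CPM in RPMI8226. It thus rose in KMS-11 (0.46, edgeR adjusted p = 0.0160), fell in KMS-12 (-0.48, edgeR adjusted p = 0.0107) and rose in RPMI8226 (1.02, edgeR adjusted p = 4.53e-05), with no overlap between groups. The KMS-11 call was lost without either replicate 1 library of KMS-11 and with library size alone, and the KMS-12 call without KMS-12 DMSO replicate 1 or JQ1 replicate 2. XRCC3 had 15.8 and 16.9 CPM with DMSO and 15.7 and 16.8 CPM with JQ1 in KMS-11, 22.8 and 22.6 against 11.4 and 14.4 CPM in KMS-12, and 18.7 and 17.3 against 35.5 and 33.7 CPM in RPMI8226. It fell by 0.81 in KMS-12 and rose by 0.94 in RPMI8226, and its groups overlapped only in KMS-11. Of its exon bases, 76.7% overlap KLC1 on the opposite strand, which had 34053 reads over the 12 libraries against 5313 for XRCC3, so its values are uncertain. PALB2, the bridge between BRCA1 and BRCA2, fell only in KMS-12 by the test (-0.74, edgeR adjusted p = 2.94e-05), and its KMS-12 and KMS-11 responses differed by -0.70 (SE 0.16, edgeR adjusted p = 0.00403).

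Among the 11 Fanconi members, 7 fell and 0 rose in KMS-11, 7 fell and 0 rose in KMS-12, and 6 rose and 0 fell in RPMI8226. At an unadjusted p under 0.05 edgeR added 1 rise in KMS-12 and 1 fall in RPMI8226, DESeq2 gave the same zeros, and limma-voom called 1 rise in KMS-12. FANCD2 and FANCI, the pair that is ubiquitinated together when a crosslink stalls a fork, separated. FANCD2 (ENSG00000144554, GRCh38 chr3:10026414-10101930, plus strand) was at 33.2 and 71.8 CPM with DMSO and 3.19 and 4.09 CPM with JQ1 in KMS-11, at 142 and 134 against 42.3 and 44.9 CPM in KMS-12, and at 47.4 and 48.9 against 43.8 and 46.8 CPM in RPMI8226. FANCI (ENSG00000140525, GRCh38 chr15:89243949-89317261, plus strand) was at 55.1 and 129 CPM with DMSO and 7.09 and 9.31 CPM with JQ1 in KMS-11, at 121 and 112 against 19.3 and 27.3 CPM in KMS-12, and at 65.0 and 62.7 against 131 and 135 CPM in RPMI8226. Both were lower with JQ1 in all KMS-11 and KMS-12 libraries, and in RPMI8226 FANCI was higher in both JQ1 libraries while FANCD2 was marginally lower in both.

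FANCD2 fell by 3.85 (SE 0.38) in KMS-11 and by 1.66 (SE 0.31) in KMS-12, and these responses differed by 2.19 (SE 0.48, edgeR adjusted p = 0.0168). In RPMI8226 its log2 change was -0.09 (SE 0.30, edgeR adjusted p = 0.876). FANCI fell by 3.49 (SE 0.44) in KMS-11 and by 2.33 (SE 0.40) in KMS-12, and its change of 1.06 (SE 0.37) in RPMI8226 did not pass at an edgeR adjusted p of 0.0745. Without KMS-11 DMSO replicate 2 the KMS-11 changes were -3.18 for FANCD2 and -2.74 for FANCI. Within each library, the ratio of FANCD2 to FANCI CPM was 0.729 and 0.780 in the RPMI8226 DMSO libraries and 0.334 and 0.346 in those with JQ1. In KMS-12 the ratio moved the other way, from 1.17 and 1.19 with DMSO to 2.19 and 1.65 with JQ1. In KMS-11 it was 0.602 and 0.557 with DMSO and 0.450 and 0.440 with JQ1. The ratio needs no scaling between libraries, and its DMSO and JQ1 values did not overlap in any line.

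The helicase BRIP1 fell by 3.83 (SE 0.36) in KMS-11 and by 2.58 (SE 0.31) in KMS-12, the KMS-11 change of BRIP1 being -3.19 without KMS-11 DMSO replicate 2. Its rise of 1.10 in RPMI8226 (edgeR adjusted p = 0.0146) was lost without any 1 RPMI8226 library, with adjusted p up to 0.0996. FANCB, a core complex subunit encoded on the X chromosome, had 11.03 and 17.6 CPM with DMSO and 5.95 and 4.71 CPM with JQ1 in KMS-11, 10.9 and 11.9 against 5.301 and 4.79 CPM in KMS-12, and 9.08 and 8.44 against 19.2 and 17.8 CPM in RPMI8226. It fell by 1.42 and 1.18 and rose by 1.08 (edgeR adjusted p = 0.000642), with no overlap in any line. FANCC, another core subunit, moved less. It was at 32.4 and 32.7 against 23.4 and 20.9 CPM in KMS-11, 52.9 and 55.3 against 39.7 and 41.1 CPM in KMS-12, and 15.3 and 16.01 against 18.5 and 19.1 CPM in RPMI8226. Its log2 changes were -0.55 (SE 0.11), -0.42 (SE 0.11) and 0.26 (SE 0.12), the last with an edgeR adjusted p of 0.0998. The core subunits FANCF and FANCG also fell in both KMS lines, by 0.41 to 0.88. The FANCF call in KMS-12 was lost with DESeq2 and without any 1 KMS-12 library, and the FANCG calls without KMS-11 DMSO replicate 2 and without KMS-12 JQ1 replicate 1. The FANCC call in KMS-12 was also lost without KMS-12 JQ1 replicate 1. FANCA, FANCE and FANCL, subunits of the same complex, and FANCM, the translocase that anchors it, were called in no KMS line and rose by 0.65 to 1.13 in RPMI8226. FANCA, FANCF and FANCL share 23.6%, 11.3% and 18.7% of their exon bases with ZNF276, GAS2 and VRK2 on the opposite strand, so their levels are uncertain.

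Of the 6 members that resect or unwind DNA ends, 4 fell in each KMS line, and 2 rose and 1 fell in RPMI8226. EXO1 (ENSG00000174371, GRCh38 chr1:241847967-241895148, plus strand), the long-range resection nuclease, had 12.2 and 26.4 CPM with DMSO and 2.09 and 2.36 CPM with JQ1 in KMS-11. It had 44.5 and 51.0 against 5.40 and 8.74 CPM in KMS-12 and 13.4 and 12.1 against 40.8 and 37.0 CPM in RPMI8226. It fell by 3.12 (SE 0.39) and 2.76 (SE 0.34) in the KMS lines and rose by 1.61 (SE 0.32, edgeR adjusted p = 0.00459) in RPMI8226, the largest rise of any member there. Without KMS-11 DMSO replicate 2 its KMS-11 change was -2.44. Without RPMI8226 DMSO replicate 2 the rise of EXO1 just missed the threshold (edgeR adjusted p = 0.0522).

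BLM, the helicase that dissolves crossed strands, was at 20.9 and 33.2 CPM with DMSO and at 13.3 and 12.1 CPM with JQ1 in KMS-11, at 27.8 and 28.3 against 4.998 and 7.79 CPM in KMS-12, and at 20.3 and 19.4 against 40.3 and 41.5 CPM in RPMI8226. Unlike FANCD2 and CHEK1 it fell further in KMS-12 (-2.13, SE 0.21) than in KMS-11 (-1.09, SE 0.20), a difference of -1.04 (SE 0.29, edgeR adjusted p = 0.0180). MRE11, the nuclease that starts resection, was at 61.9 and 62.1 CPM with DMSO and at 37.4 and 37.1 CPM with JQ1 in KMS-11, at 130 and 121 against 82.4 and 81.4 CPM in KMS-12, and at 56.3 and 62.7 against 45.2 and 51.3 CPM in RPMI8226. The JQ1 libraries were below both DMSO libraries in each line. It fell by 0.73, 0.61 and 0.30 on the log2 scale. For MRE11 the RPMI8226 call (edgeR adjusted p = 0.0248) was lost without RPMI8226 JQ1 replicate 1 or DMSO replicate 2, and with the 4 RPMI8226 libraries fitted alone. Its partners RAD50 and NBN changed by -0.29 to 0.17 and by -0.06 to 0.02. RAD50 shares 79.7% of its exon bases with AC116366.3 on the same strand, so its values are uncertain. RBBP8, which activates MRE11, fell by 0.56 and 0.55 in the KMS lines and changed by 0.09 in RPMI8226 (edgeR adjusted p = 0.599).

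Of the 6 checkpoint members, 4 fell and 2 rose in KMS-11, 3 fell and 2 rose in KMS-12, and 1 fell and 3 rose in RPMI8226. CHEK1 (ENSG00000149554, GRCh38 chr11:125625136-125676255, plus strand), the kinase that holds back mitosis and new origin firing when replication stalls, had the smallest adjusted p of all members in KMS-11, KMS-12 and the average. It was at 14.8 and 22.8 CPM with DMSO and at 1.24 and 1.29 CPM with JQ1 in KMS-11, at 82.8 and 78.1 against 12.3 and 15.3 CPM in KMS-12, and at 20.1 and 19.9 against 36.9 and 36.2 CPM in RPMI8226. No groups overlapped. CHEK1 fell by 3.89 (SE 0.22, edgeR adjusted p = 6.72e-10) in KMS-11 and by 2.55 (SE 0.17, edgeR adjusted p = 2.01e-09) in KMS-12, and rose by 0.87 (SE 0.16, edgeR adjusted p = 0.000470) in RPMI8226. CHEK2, the effector kinase downstream of ATM, fell by 1.42 and 0.75 in the KMS lines, the KMS-12 call being lost without KMS-12 DMSO replicate 1 or JQ1 replicate 1, and TOPBP1, an activator of ATR, by 0.77 and 0.42. The KMS-12 call for TOPBP1 (edgeR adjusted p = 0.0456) was lost with RLE scaling, with limma-voom, without any 1 KMS-12 library and without most single libraries of the other lines.

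ATR, the kinase that senses single-stranded DNA, was at 244 and 232 CPM with DMSO and 328 and 337 CPM with JQ1 in KMS-11, at 142 and 155 against 241 and 237 CPM in KMS-12, and at 192 and 212 against 252 and 263 CPM in RPMI8226. It was higher in every JQ1 library than in the DMSO libraries of its line. The log2 changes were 0.48 (SE 0.09, edgeR adjusted p = 0.000377), 0.68 (SE 0.09, edgeR adjusted p = 8.02e-06) and 0.35 (SE 0.09, edgeR adjusted p = 0.00643), but with library size alone the KMS-12 change turned to -0.09 and the KMS-11 call was lost. The RPMI8226 call was lost without RPMI8226 DMSO replicate 1. ATRIP shares 27.9% of its exon bases with TREX1 (0 reads) on the same strand, so its level is uncertain. It rose by 0.62, 0.85 and 0.73. Its KMS-11 and KMS-12 calls were also lost with library size alone, the former also without KMS-11 JQ1 replicate 2. ATM, the kinase that responds to breaks in both strands, went the other way. It was at 230 and 212 CPM with DMSO and 136 and 124 CPM with JQ1 in KMS-11, at 549 and 530 against 538 and 478 CPM in KMS-12, and at 742 and 698 against 473 and 483 CPM in RPMI8226. It fell by 0.76 (SE 0.10, edgeR adjusted p = 8.66e-06) in KMS-11 and 0.59 (SE 0.10, edgeR adjusted p = 0.000163) in RPMI8226, and its groups overlapped in KMS-12 (-0.09, edgeR adjusted p = 0.515). The ratio of ATR to ATM CPM, which needs no scaling, was higher in both JQ1 libraries than in both DMSO libraries of every line, for instance 2.404 and 2.71 against 1.06 and 1.10 in KMS-11.

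MSH6 and PMS2 are mismatch repair proteins. MSH6, part of the mismatch sensor, was at 63.3 and 63.1 CPM with DMSO and at 64.2 and 60.2 CPM with JQ1 in KMS-11, at 80.5 and 78.6 against 71.3 and 74.1 CPM in KMS-12, and at 61.9 and 67.5 against 107 and 113 CPM in RPMI8226. It was listed as S-phase linked but fell in neither KMS line by the test (-0.02 and -0.13), and rose by 0.76 (SE 0.09, edgeR adjusted p = 6.63e-06) in RPMI8226, where it had the smallest adjusted p of the members. Of its exon bases, 16.2% overlap FBXO11 on the opposite strand, which had 35052 reads against 19829 for MSH6, so its level is uncertain. PMS2 rose in KMS-12 under TMM by 0.44 (edgeR adjusted p = 0.00700), a change that turned to -0.33 with library size alone and was not called without KMS-12 DMSO replicate 1. Its 7284 reads stand beside 15980 for PMS2P1 and 4505 for PMS2CL, gene copies named after it. Whether reads were shared among them is not known, so the level of PMS2 is uncertain.

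The end-joining members moved little. XRCC5 (ENSG00000079246, GRCh38 chr2:216107464-216206303, plus strand), the larger Ku subunit, was at 211 and 255 CPM with DMSO and 226 and 256 CPM with JQ1 in KMS-11, at 226 and 243 against 282 and 279 CPM in KMS-12, and at 127 and 130 against 145 and 151 CPM in RPMI8226. XRCC6 (ENSG00000196419, GRCh38 chr22:41621119-41664048, plus strand), the smaller Ku subunit, was at 125 and 147 against 140 and 147 CPM, at 90.5 and 99.0 against 104 and 116 CPM, and at 158 and 166 against 196 and 210 CPM in the same order of lines. For both, the groups overlapped in KMS-11 and the JQ1 libraries were higher in KMS-12 and RPMI8226. Of their 6 changes, 2 passed: XRCC5 in KMS-12 (0.26, edgeR adjusted p = 0.0446) and XRCC6 in RPMI8226 (0.32, edgeR adjusted p = 0.0188). The XRCC5 call was lost with a minimum mean of 10 CPM, without any 1 KMS-12 library and without either RPMI8226 DMSO library, with edgeR adjusted p up to 0.248. With library size alone the KMS-12 changes of XRCC5, XRCC6 and PRKDC turned to -0.51, -0.55 and -0.59, and the XRCC6 call in RPMI8226 was lost without RPMI8226 DMSO replicate 1, DMSO replicate 2 or JQ1 replicate 2.

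PRKDC, the catalytic subunit of the DNA-dependent protein kinase, was at 332 and 408 CPM with DMSO and 465 and 473 CPM with JQ1 in KMS-11, at 796 and 787 against 881 and 907 CPM in KMS-12, and at 339 and 339 against 513 and 538 CPM in RPMI8226. Its JQ1 libraries were the higher ones in each line. It rose in RPMI8226 by 0.63 (SE 0.10, edgeR adjusted p = 0.000132) and in KMS-11 by 0.34 (SE 0.10, edgeR adjusted p = 0.0126). The KMS-11 call was lost with library size alone, with the 4 KMS-11 libraries fitted alone and without KMS-11 DMSO replicate 1 or JQ1 replicate 2. LIG4, the ligase of this pathway, was at 41.7 and 32.2 against 42.4 and 48.7 CPM in KMS-11, 65.0 and 60.2 against 40.2 and 39.5 CPM in KMS-12, and 12.3 and 15.8 against 8.63 and 12.5 CPM in RPMI8226. It fell in KMS-12 by 0.65 (SE 0.16, edgeR adjusted p = 0.00316), was higher in both JQ1 libraries of KMS-11 without passing the test, and overlapped in RPMI8226. PARP1, which binds nicks and breaks and is described apart from the 4, was at 366 and 408 against 332 and 367 CPM in KMS-11, 319 and 314 against 332 and 335 CPM in KMS-12, and 299 and 294 against 466 and 436 CPM in RPMI8226. It rose by 0.60 (SE 0.09, edgeR adjusted p = 9.72e-05) in RPMI8226 and passed in neither KMS line.

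**Figure D2:**
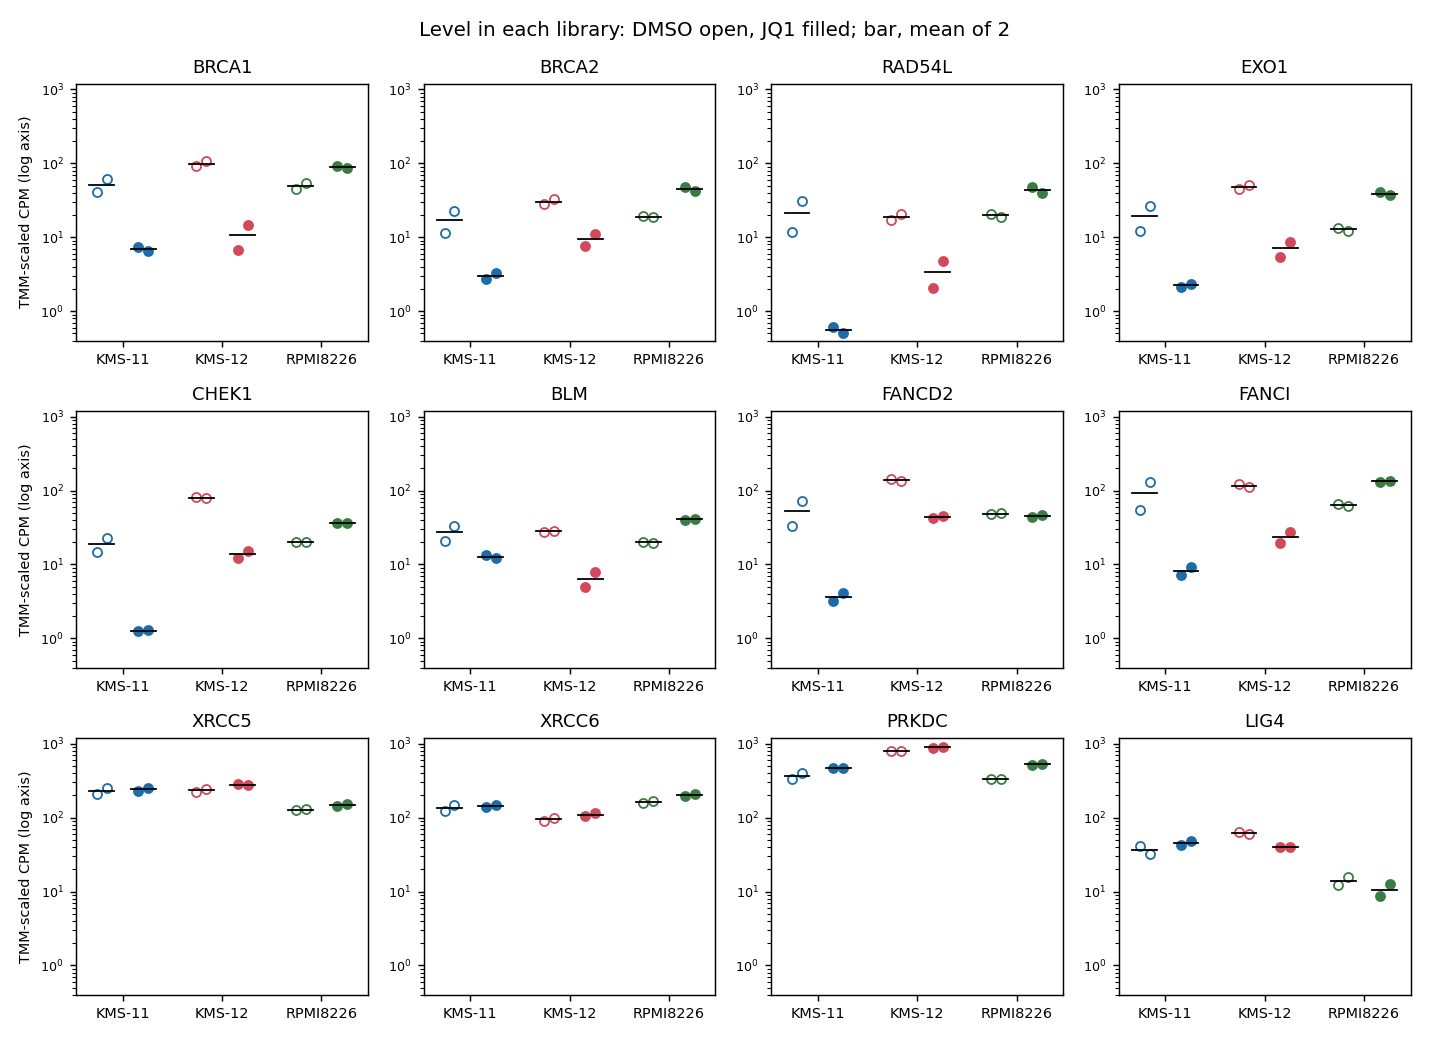
TMM-scaled CPM on a log axis for 12 members in each library of KMS-11 (blue), KMS-12 (red) and RPMI8226 (green), with DMSO as open points, JQ1 as filled points and a bar at the mean of the 2 libraries. The upper 8 genes drop in the KMS lines, for BRCA1 to 7.33 and 6.51 CPM in KMS-11, while XRCC5, XRCC6, PRKDC and LIG4 move little on the same axis.

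Set against each other, the 16 S-phase linked and the 4 end-joining members parted in opposite directions in the KMS lines and RPMI8226. In KMS-11 the median log2 change was -2.91 over the S-phase linked members, of which 14 fell and 0 rose, and 0.19 over the end-joining members, of which 1 rose. In KMS-12 it was -2.23, with 14 fallen and 0 risen, against 0.20, with 1 risen and 1 fallen. In RPMI8226 it was 0.92, with 0 fallen and 10 risen, against 0.26, with 2 risen. Fitted with DESeq2 or limma-voom, or at an unadjusted p under 0.05 in edgeR, the 3 counts of 0 for S-phase linked members stayed at 0. The small changes of the end-joining members depend on scaling: with library size alone, 0 rose in KMS-11 and all 4 fell in KMS-12. The difference of the medians was -3.10, -2.43 and 0.66 in the 3 lines, and a change of scaling shifts all genes of a line alike and so cancels in it. The S-phase linked members not called lower were FANCA and MSH6 in both KMS lines. In RPMI8226 the count of risen S-phase linked members went from 10 to 6 without RPMI8226 DMSO replicate 2 and to 14 when its 4 libraries were fitted alone.

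The same contrast can be read in each library as the median log2 level of the S-phase linked members minus that of the end-joining members. This was -3.01 and -2.42 in the KMS-11 DMSO libraries and -5.44 and -5.40 in those with JQ1. In KMS-12 it was -1.73 and -1.82 with DMSO and -4.67 and -4.12 with JQ1. In RPMI8226 it was -2.72 and -2.74 with DMSO and -1.87 and -2.07 with JQ1. DMSO and JQ1 libraries did not overlap in any line, and the pooled SD between replicates was 0.24. The KMS-11 DMSO libraries (-3.01 and -2.42) and the KMS-12 JQ1 libraries (-4.67 and -4.12) differed from each other by more than those of the remaining groups. Without KMS-11 DMSO replicate 2 the KMS-11 difference was -2.60, and without replicate 1 it was -3.34. Over all 40 members, both JQ1 libraries lay below both DMSO libraries for 22 (KMS-11), 28 (KMS-12) and 5 (RPMI8226), and above them for 6, 8 and 29. With 2 libraries against 2 such separation was common: over all genes tested the JQ1 libraries lay below in 33.5%, 40.6% and 35.7% and above in 30%, 31.6% and 30.1% of genes, in the same order of lines.

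Markers of cycling cells moved with the S-phase linked members. Of 16 S-phase markers, such as the MCM helicase subunits that license replication, 14 fell and 1 rose in KMS-11, 14 fell in KMS-12 and 13 rose in RPMI8226. Their summed level was 577 to 1039 CPM with DMSO and 262 to 266 CPM with JQ1 in KMS-11, 730 to 734 against 299 to 340 CPM in KMS-12, and 692 to 738 against 1366 to 1477 CPM in RPMI8226. All 14 markers of G2 and mitosis fell in both KMS lines, and 1 rose in RPMI8226. Their sum went from 586 to 1764 CPM down to 65.7 to 79.0 CPM in KMS-11 and from 683 to 784 CPM down to 52.1 to 109 CPM in KMS-12. In RPMI8226 it was 419 to 505 CPM with DMSO and 664 to 838 CPM with JQ1. No marker sum was at 0. In bulk RNA, fewer cells in S phase and less RNA per cell cannot be told apart, and the part of cell cycle phase in the member changes was not tested.

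**Figure D3:**
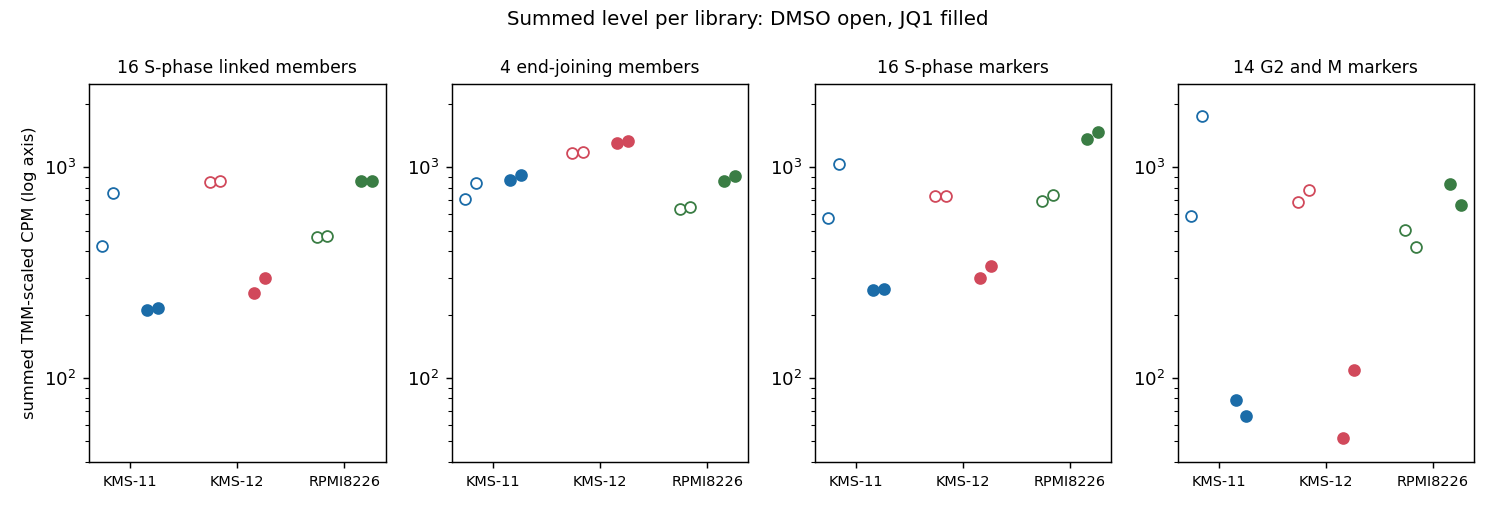
Summed TMM-scaled CPM per library on a log axis for the 16 S-phase linked members, the 4 end-joining members, 16 S-phase markers and 14 markers of G2 and mitosis, with DMSO as open and JQ1 as filled points for KMS-11 (blue), KMS-12 (red) and RPMI8226 (green). The S-phase linked sum went from 425 and 759 CPM to 211 and 215 CPM in KMS-11 and from 468 and 471 CPM to 860 and 861 CPM in RPMI8226. The end-joining sum was higher in both JQ1 libraries of each line. It went from 710 and 842 CPM to 874 and 924 CPM in KMS-11 and from 1177 and 1189 CPM to 1308 and 1342 CPM in KMS-12. In RPMI8226 it went from 636 and 651 CPM to 862 and 911 CPM. The rises in the KMS lines depend on scaling.

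The test of a difference in response between the lines called 31 of the 40 members, against 30.1% of all genes tested. The 16 S-phase linked members were among them and, of the 4 end-joining members, LIG4 alone. The call of RAD54B (edgeR adjusted p = 0.0419) was lost with DESeq2, with limma-voom and without any single library but KMS-11 DMSO replicate 1, with adjusted p up to 0.156. The response was higher in RPMI8226 than in KMS-11 for 26 members and lower for 0 (1 at an unadjusted p under 0.05, 1 by DESeq2 and 0 by limma-voom), against 11.4% of all genes called, 6.7% higher and 4.72% lower. It was higher in RPMI8226 than in KMS-12 for 28 and lower for 2 (ATM and PMS2), against 23.4% called, 12.3% higher and 11.1% lower. These comparisons share the RPMI8226 libraries. The largest gaps between RPMI8226 and KMS-11 were those of RAD54L (6.37, SE 0.85), BRIP1 (4.93, SE 0.46), CHEK1 (4.76, SE 0.28) and EXO1 (4.73, SE 0.51), with edgeR adjusted p of 0.00348, 0.000129, 8.62e-09 and 0.000405.

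The 2 KMS lines differed from each other for 8 members, 20% of them, which is the share among all genes tested (20% called, 10.1% higher and 9.87% lower). FANCD2, ATM and CHEK1 had the higher response in KMS-12, and PALB2, RAD51C, XRCC3, BLM and LIG4 the lower. The CHEK1 difference was 1.34 (SE 0.29, edgeR adjusted p = 0.00246) and that of LIG4 -0.95 (SE 0.23, edgeR adjusted p = 0.00647). The count varied with the libraries and the scaling: it was 17 without KMS-11 DMSO replicate 1, 12 without KMS-11 DMSO replicate 2 and 16 with library size alone.

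With DMSO alone, the level of 33 of the 40 members differed between the lines, against 80.2% of all genes tested. Per kb of exon, PARP1, XRCC5, XRCC6 and PRKDC ranked among the first 5 members in every line, at 21.9 to 54.0 CPM per kb. PARP1 led in KMS-11 at 54.0 CPM per kb, PRKDC in KMS-12 at 51.3 CPM per kb and XRCC6 in RPMI8226 at 49.3 CPM per kb. All 16 S-phase linked members were lower by this scale, at 0.539 to 16.4 CPM per kb: BRCA1 stood at 5.53, 10.8 and 5.40 CPM per kb in KMS-11, KMS-12 and RPMI8226, CHEK1 at 2.87, 12.3 and 3.05, and BRCA2 at 1.40, 2.48 and 1.55. LIG4 was far below its end-joining partners at 8.42, 14.3 and 3.20 CPM per kb.

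ATM had the smallest adjusted p for a difference between the DMSO groups. It was lowest in KMS-11 (230 and 212 CPM), higher in KMS-12 (549 and 530 CPM) and highest in RPMI8226 (742 and 698 CPM), and neighbours in this order differed by 1.29 (SE 0.10, edgeR adjusted p = 2.35e-09) and 0.42 (SE 0.10, edgeR adjusted p = 0.00111) on the log2 scale. CHEK1 was highest in KMS-12, by 2.10 (SE 0.16, edgeR adjusted p = 2.80e-09) over KMS-11, while KMS-11 and RPMI8226 did not differ beyond their spread (0.09, edgeR adjusted p = 0.669). FANCC ran from RPMI8226 over KMS-11 to KMS-12, with steps of 1.05 and 0.73 between the neighbours. PRKDC was higher in KMS-12 than in KMS-11 by 1.10 (SE 0.10), and LIG4 was lower in RPMI8226 than in KMS-12 by 2.15 (SE 0.17). RAD50 was lowest in KMS-12, at 9.66 and 9.54 CPM, against 17.8 to 24.1 CPM in the other lines. It shares 79.7% of its exon bases with AC116366.3 on the same strand, which had 4 reads over the 12 libraries. How reads in shared bases were counted is not stated, so the level of RAD50 is uncertain.

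Of the 16 S-phase linked members, 7 were higher and 1 was lower in KMS-12 than in KMS-11 with DMSO, where 62.9% of all genes were called, 30.2% higher and 32.7% lower. Between RPMI8226 and KMS-11, 1 was higher and 2 were lower in RPMI8226, against 58.2% called, 30% higher and 28.2% lower. In RPMI8226 10 were lower and 0 higher than in KMS-12, against 62.5% called, 33.2% higher and 29.3% lower. The 0 also held at an unadjusted p under 0.05 in edgeR and by DESeq2 and limma-voom. RAD54L did not pass the test over the 3 DMSO groups (edgeR adjusted p = 0.932).

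**Figure D4:**
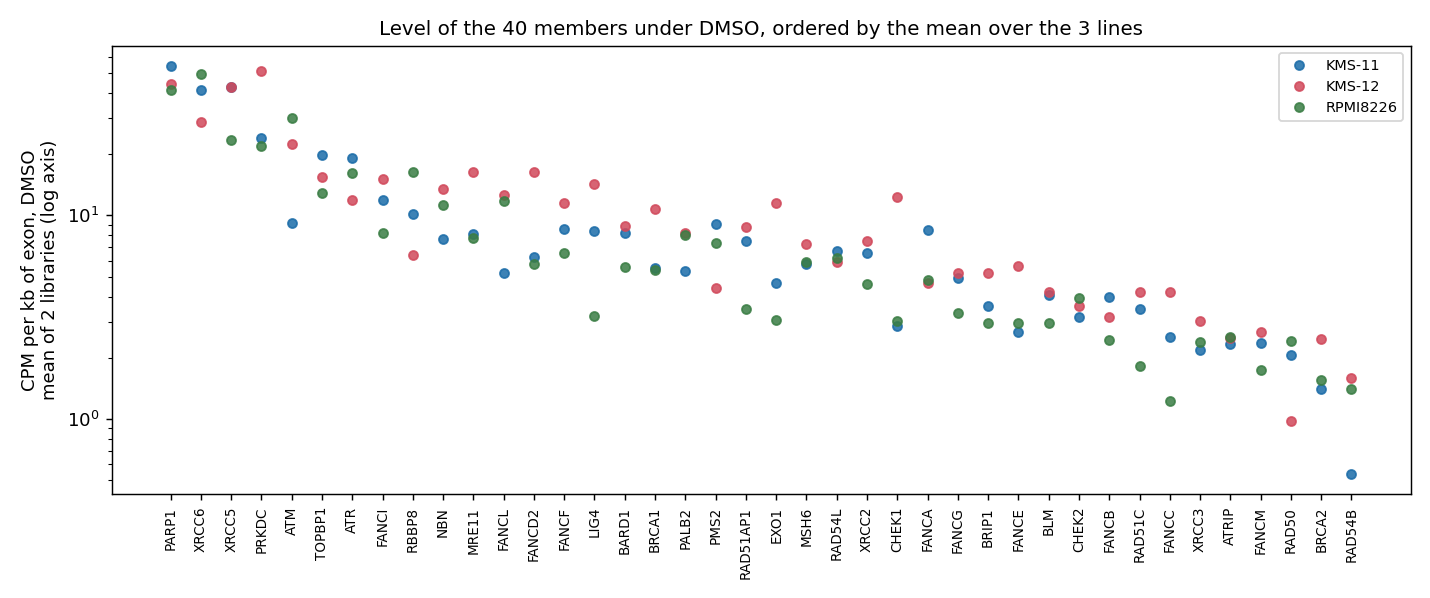
CPM per kb of exon with DMSO on a log axis, as the mean of 2 libraries, for the 40 members in order of their mean over KMS-11 (blue), KMS-12 (red) and RPMI8226 (green). PARP1, XRCC6, XRCC5 and PRKDC lead at 21.9 to 54.0 CPM per kb, and RAD54B, BRCA2 and RAD50 close the order at 0.539 to 2.48 CPM per kb. The levels of RAD54B and RAD50 are uncertain because they share exon bases with other genes.

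Because most S-phase linked members fell in the KMS lines, the DNA around their start sites is shown. RefSeq promoter windows (GRCh38.p14, 300 bases each, reaching from before the start of transcription into the first bases after it) were matched by symbol for 35 of the 40 members. They were searched on both strands for forms of the E2F binding motif. The first form was TTCCCGC. The second differs at the centre and reads TTCGCGC. The other forms open with TTG and read TTGCCGC or, in the last case, TTGGCGC. At least 1 match stood in 11 of 14 S-phase linked members with a window (78.6%), in 1 of 2 end-joining members and in 9 of the 19 other members (47.4%). Over 12904 genes tested that had a window the share was 23.1%, and over all 27305 genes with a window 15.3%. CHEK1, BRCA2 and FANCB were the S-phase linked members with a window and no match. These forms were chosen after a longer form with 1 more T in front had been searched, which stood in 5 of the 14 S-phase linked members (35.7%), in 1 of 2 end-joining members and in 6.22% of the genes tested. The CHR element, searched as TTTGAA and TTCGAA, stood in 1 of the 14 (7.14%) and in 16% of the genes tested. The CCAAT box, searched as CCAAT on both strands, stood in 57.1% of the S-phase linked members and in 42.6% of the genes tested. It also stood in 2 of 2 end-joining members and in 47.4% of the other members. Some genes have several windows, which raises the chance of a match. A match is a description of the letters, not evidence that a factor binds there.

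The stretches below are the 100 bases before 1 RefSeq start site of each gene, on the strand of the gene, with E2F letters in capitals. They were chosen after the search to show fallen S-phase linked members with and without a match beside PARP1 and XRCC6, which did not fall by the test. For CHEK1, EXO1 and XRCC6 this start lies after the gene start given above, so the stretch lies within the annotated gene. Most of the RAD51AP1 stretch does too. Of 8 fallen S-phase linked members chosen for this stretch, 3 held a match (RAD54L, RAD51AP1 and BLM) and 5 did not (EXO1, CHEK1, FANCD2, BRIP1 and XRCC2). BRCA1, BRCA2, BARD1 and FANCB, which also fell and have a window, were not examined in it. The share over all genes was not taken for so short a stretch. They lie at chr1:46247588-46247687 (plus strand) for RAD54L, chr12:4538790-4538889 (plus) for RAD51AP1, chr15:90717246-90717345 (plus) for BLM, chr11:125626129-125626228 (plus) for CHEK1, chr1:241848104-241848203 (plus) for EXO1, chr1:226408094-226408193 (minus) for PARP1 and chr22:41621195-41621294 (plus) for XRCC6.
RAD54L: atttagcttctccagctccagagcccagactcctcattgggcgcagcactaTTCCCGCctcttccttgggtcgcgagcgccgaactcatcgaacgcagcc
RAD51AP1: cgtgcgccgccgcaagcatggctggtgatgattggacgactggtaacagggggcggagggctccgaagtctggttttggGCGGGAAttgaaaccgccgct
BLM: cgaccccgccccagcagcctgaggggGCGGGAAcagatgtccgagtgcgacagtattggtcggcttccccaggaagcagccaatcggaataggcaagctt
CHEK1: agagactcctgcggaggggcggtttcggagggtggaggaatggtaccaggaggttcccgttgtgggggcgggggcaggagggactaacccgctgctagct
EXO1: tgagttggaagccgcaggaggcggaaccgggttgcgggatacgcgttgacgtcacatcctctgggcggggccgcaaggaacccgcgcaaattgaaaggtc
PARP1: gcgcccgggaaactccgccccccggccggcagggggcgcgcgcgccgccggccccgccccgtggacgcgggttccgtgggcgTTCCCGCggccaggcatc
XRCC6: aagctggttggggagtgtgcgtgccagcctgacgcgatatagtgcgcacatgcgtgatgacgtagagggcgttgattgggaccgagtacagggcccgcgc
RAD54L and PARP1 hold 1 match each as TTCCCGC, RAD51AP1 and BLM 1 each as its reverse complement GCGGGAA, and the stretches of CHEK1, EXO1 and XRCC6 none. XRCC6 has a match outside the stretch, after its start, and is the 1 end-joining member counted above. EXO1, FANCD2, BRIP1 and XRCC2 also have a match in a window but outside the stretch, whereas CHEK1 has none in its windows. In these chosen stretches, RAD54L, RAD51AP1 and BLM, with the letters, and CHEK1 and EXO1, without them, fell in both KMS lines. PARP1, with the letters, passed in neither. Whether the letters or E2F factors had a part in the member changes was not tested. Of the 8 E2F factor genes measured, 5 fell and 1 rose in KMS-11, against 21.2% of all genes called lower and 17.3% higher. In KMS-12 5 fell and 3 were not called, against 25.7% called lower. In RPMI8226 2 rose and 6 were not called, against 13.6% called higher. E2F2 was at 44.2 and 109 against 3.81 and 5.78 CPM in KMS-11, at 29.1 and 32.0 against 1.26 and 2.05 CPM in KMS-12, and at 40.9 and 38.1 against 102 and 94.2 CPM in RPMI8226.

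Other genes of these pathways moved less uniformly. Of 32 other recombination and Fanconi genes, 11 fell and 6 rose in KMS-11, 11 fell and 3 rose in KMS-12, and 4 fell and 15 rose in RPMI8226. RAD51B and RAD51D, paralogues of the recombinase, fell in all 3 lines, RAD51D from 24.4 and 25.2 to 9.70 and 8.52 CPM in KMS-11, from 34.4 and 33.0 to 15.6 and 12.7 CPM in KMS-12 and from 37.4 and 41.8 to 19.2 and 22.6 CPM in RPMI8226. SLX4, the scaffold of the nucleases that cut crosslinked DNA, rose in all 3, by 0.95, 1.26 and 1.23. RMI2, a partner of BLM, fell by 5.27 in KMS-11, had a log2 change of -5.003 in KMS-12 and changed by 0.32 in RPMI8226 (edgeR adjusted p = 0.372), with 0.202 to 0.316 CPM in the KMS JQ1 libraries, close to what a count of 0 allows.

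Of 9 other end-joining genes, KMS-11 had 3 risen and 1 fallen, KMS-12 had 2 risen and 3 fallen, and RPMI8226 had 2 risen and 1 fallen. XRCC4, the partner of LIG4, fell in all 3 lines, by 0.79, 1.30 and 0.91. Of 14 break signalling genes, 2 were higher and 2 lower in KMS-11, and 5 were higher and 2 lower in KMS-12 and likewise in RPMI8226. Over all genes tested, 17.3% were called higher and 21.2% lower for KMS-11. The same shares were 20.2% and 25.7% for KMS-12, then 13.6% and 18.6% for RPMI8226. Falls among break signalling genes (2 of 14, 14.3%, in each line) and their KMS-11 rises (2 of 14, 14.3%) are too few to be told apart from these shares. Rises of these genes in the other lines (5 of 14, 35.7%, each) were above the share over all genes, but are few as well. Of 5 genes of alternative end joining and single-strand break repair, 4 fell in each KMS line and 1 in RPMI8226. POLQ, the polymerase of alternative end joining, was at 45.7 and 104 against 9.13 and 7.18 CPM in KMS-11, at 41.8 and 47.2 against 5.55 and 10.6 CPM in KMS-12, and at 36.9 and 35.2 against 72.9 and 67.1 CPM in RPMI8226. It fell by 3.19 and 2.47 in the KMS lines, and its change of 0.96 in RPMI8226 did not pass at an edgeR adjusted p of 0.123.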

How the data were processed

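The authors deposited raw counts of reads, as 1 whole number for each Ensembl gene ID in each library. Per the labels' protocols, total RNA was depleted of ribosomal RNA and made into stranded libraries. The submitters' processing notes name hg38, GRCh38.p13, DESeq2 and MACS2 without a role, while aligner, counter, annotation release and strand handling are not stated by any source used. Values of overlapping genes are therefore uncertain. Depth was 15424512 to 27366499 counts per library, and limits from it cover counting error only. A table of gene names supplied symbols for 60437 IDs, and GENCODE 29 gave exon lengths and positions.

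In R 4.3.3, edgeR 4.0.16 was run on the counts with filterByExpr (minimum count 10, total 15), TMM scaling and quasi-likelihood F tests in 1 fit of 6 group means over all 12 libraries. A call means an adjusted p (Benjamini-Hochberg over all 23493 genes) under 0.05. Contrasts were JQ1 minus DMSO in each line and on average, differences of these responses, and differences between DMSO groups. Without a spike-in, CPM give relative amounts. The code was tested on simulated counts. Members were grouped by role and S-phase linkage from textbook knowledge. Values per library were given for BRCA1, BRCA2, FANCD2, FANCI, RAD54L, EXO1, CHEK1, XRCC5, XRCC6, PRKDC, LIG4 and PARP1 and for the 3 members with the smallest adjusted p in each test, and up to 4 genes were taken from each other list by adjusted p. CD38 and CCND1 served as label checks. The members and lists were chosen with earlier results of these data known. The E2F letters were shortened, and the stretches printed chosen, after a first search. Alternatives tried: DESeq2 1.42.0, limma-voom (limma 3.58.1), library size alone, RLE scaling, keeping genes with 1 read or more, requiring 10 CPM on average, the 4 libraries of a line alone, a block for the replicate number, and leaving out each library, a remaining single library taking its spread from the rest.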

Additional observations from a re-analysis of the deposited data

Results flagged for a closer look

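For 31 of the 40 members the response to JQ1 differed between the 3 lines by edgeR's quasi-likelihood F test (Benjamini-Hochberg adjusted p, 2 libraries a group), against 30.1% of all genes tested. Groups of 2 libraries are too small for a check of single outlying samples. CHEK1 had the smallest adjusted p, 2.2e-09, with a fall in both KMS lines and a rise in RPMI8226. BLM at 2.25e-06, FANCB at 8.34e-06, BRIP1 at 6.24e-05, XRCC2 at 7.65e-05, BRCA2 at 8.34e-05, EXO1 at 0.000129 and BARD1 at 0.00386 showed the same order of directions. For these 8 genes both JQ1 libraries lay below both DMSO libraries in the KMS lines and above them in RPMI8226. They were picked by their calls in these same libraries, so this separation was largely fixed by the choice. Over all genes tested the JQ1 libraries lay below in 33.5% (KMS-11) and 40.6% (KMS-12) and above in 30.1% (RPMI8226).

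Recombination and Fanconi members that fell in the KMS lines without passing in RPMI8226 had adjusted p of 0.000621 for BRCA1, 0.00182 for FANCC, 0.00237 for FANCD2, 0.00246 for FANCI, 0.00265 for RAD54L, 0.00851 for FANCG, 0.01 for RAD51AP1 and 0.0419 for RAD54B. Checkpoint and resection members of the same kind were CHEK2 at 0.000352, RBBP8 at 0.00714 and TOPBP1 at 0.00791. Members called higher in RPMI8226 alone had values of 6.77e-05 for MSH6, 0.000694 for FANCA, 0.000868 for PARP1, 0.0025 for FANCM, 0.00293 for FANCL and 0.00351 for FANCE.

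XRCC3 at 1.33e-05, RAD51C at 8.1e-05, PALB2 at 0.000891, ATM at 0.00276, LIG4 at 0.0101 and PMS2 at 0.0418 were called with other combinations of directions. The RAD54B call was lost with DESeq2, with limma-voom and without any single library but KMS-11 DMSO replicate 1 (edgeR adjusted p up to 0.156), and the PMS2 call without most single libraries, without the filter on low counts and with library size alone (0.712). FANCG was at 0.0658 without RPMI8226 DMSO replicate 1, RBBP8 at 0.0505 without RPMI8226 JQ1 replicate 2, RAD51AP1 at 0.0614 without RPMI8226 DMSO replicate 2, and ATM at 0.0613 with library size alone.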

How the results depend on the processing

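Over the alternatives, 200 results for single members gave 4115 values: 3865 stayed on the same side of the threshold, 138 lost the call and 96 gained one. Changes of sign that were called in neither fit are counted among the 3865. The other 16 reversed sign with a call in the main or the alternative fit, each with library size alone in place of TMM. These were, in the average of the lines, RAD51C at -0.018, XRCC3 at -0.31, FANCA at -0.24, FANCL at -0.25, MSH6 at -0.15, PMS2 at -0.25, XRCC5 at -0.18, XRCC6 at -0.15 and PARP1 at -0.18, in KMS-11 NBN at -0.26, and in KMS-12 ATR at -0.088, PMS2 at -0.33, XRCC5 at -0.51, XRCC6 at -0.55, PRKDC at -0.59 and PARP1 at -0.70. With library size alone edgeR called 2 members higher in the average and 0 in KMS-11 (2 unadjusted) and 0 in KMS-12 (0 unadjusted). With only the 4 libraries of the line, 2 were called higher in KMS-11, 7 higher in KMS-12 and 1 lower in RPMI8226. The cause was not tested beyond the shift of scale that these settings make.

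Leaving out each library in turn gave 22 to 24 members lower and 9 to 11 higher in the average. In KMS-11 it gave 20 to 23 lower and 2 to 4 higher, in KMS-12 19 to 26 lower and 2 to 7 higher, and in RPMI8226 1 to 4 lower and 15 to 23 higher. A difference of responses was called for 28 to 32 members and one between DMSO groups for 27 to 38. The difference of medians between S-phase linked and end-joining members ranged from -1.79 to -1.50 in the average. For KMS-11 the range was -3.34 to -2.60, for KMS-12 -2.69 to -2.14, and for RPMI8226 0.62 to 0.74. A library left alone in its group was assumed to vary as the other groups do.

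Same-numbered libraries of DMSO and JQ1 deviated together with correlations of 0.106 (KMS-11), 0.0122 (KMS-12) and 0.104 (RPMI8226), so the replicate numbers were not taken as pairs. With the number as a block, 24 members were lower and 10 higher in the average. The block gave 22 lower and 4 higher for KMS-11, 25 and 6 for KMS-12, and 2 and 21 for RPMI8226. The difference between lines was called for 32. With 2 libraries a group, small changes such as those of the end-joining members are at the limit of what could be called.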

Other observations

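Among break signalling genes, H2AX, the histone variant phosphorylated beside breaks, was at 8.39 and 7.99 CPM with DMSO and at 40.3 and 31.1 CPM with JQ1 in RPMI8226. It rose there by 2.13 on the log2 scale (SE 0.26, edgeR adjusted p = 9.5e-05). In KMS-12 it was at 34.1 and 28.8 against 46.2 and 53.5 CPM, a rise of 0.67 (edgeR adjusted p = 0.0379). In KMS-11 it was at 16.4 and 30.5 against 28.7 and 31.6 CPM, where the groups overlapped. RNF168, the ubiquitin ligase that marks chromatin around breaks, was at 141 and 140 against 260 and 248 CPM in KMS-12, a rise of 0.86 (SE 0.10, edgeR adjusted p = 1.29e-06). Its changes of 0.23 in KMS-11 and 0.27 in RPMI8226 did not pass. ABRAXAS1 rose in all 3 lines, by 0.37 to 0.78, and BABAM2 fell in all 3, by 0.41 to 0.50. Both encode subunits of the BRCA1-A complex.

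PARP3, a relative of PARP1 that acts in end joining, was at 10.95 and 5.77 against 3.95 and 1.68 CPM in KMS-11, at 26.7 and 27.9 against 6.21 and 6.42 CPM in KMS-12, and at 21.8 and 24.6 against 9.48 and 10.8 CPM in RPMI8226. It fell by 1.55, 2.11 and 1.19, without overlap of the groups. LIG3, the ligase of single-strand break repair, fell by 0.65 and 0.66 in the KMS lines and changed by -0.12 in RPMI8226 (edgeR adjusted p = 0.352). These genes were singled out after their values were seen.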
